A study of Homo sapiens with 6 samples.

Results

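The aldehyde dehydrogenases examined here were 9 human genes, ALDH1A1, ALDH1A3, ALDH1B1, ALDH2, ALDH3A1, ALDH3A2, ALDH4A1, ALDH7A1 and ALDH9A1. They were chosen by gene symbol, as the probe sets (groups of short oligonucleotides on the array that read 1 transcript) annotated to 1 of these symbols and no other. All 9 were found, on 15 probe sets, among 11963 genes with such a probe set. ALDH3A2 and ALDH7A1 had 3 probe sets each, ALDH1B1 and ALDH4A1 had 2 each, and the other 5 genes had 1 each.

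Expression was measured on 6 Affymetrix arrays with RNA of PC3, an established human prostate cancer cell line, grown in RPMI medium. In the control group (replicates 1 to 3) the titles call the cells wild type, while the source label and the protocol give the vector alone. In the PSMA group (replicates 4 to 6) the cells had been transfected with the pLNCX-PSMA plasmid, which carries prostate-specific membrane antigen (PSMA, encoded by FOLH1). By the protocol FUGENE 6 (2 µg) carried the plasmid (3 µg) into the cells of both groups over 30 min, and puromycin selection followed after 72 h of recovery. The labels give neither clones nor pools, no batch, and no statement that each replicate had its own culture. The p-values therefore reflect how far these arrays vary, and that variation may be technical only.

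Aldehyde dehydrogenases oxidise aldehydes to carboxylic acids with NAD or NADP. Members differ in substrate and in cell compartment: ALDH1A1 and ALDH1A3 make retinoic acid from retinal, ALDH2 and ALDH1B1 clear acetaldehyde in mitochondria, ALDH3A1 and ALDH3A2 remove lipid-derived and fatty aldehydes, and ALDH4A1, ALDH7A1 and ALDH9A1 act on aldehydes from amino acid and amine breakdown. Total aldehyde dehydrogenase activity is widely used to sort stem-like cells from prostate and other cancers.

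The promoters of 4 members are shown because their genes hold the contrasts described below: ALDH3A2 was lower in 1 group, ALDH9A1 was higher in that group, ALDH1A3 was bright in both and ALDH1A1 was near background in both. Each line is the 250 bases before a start site from RefSeq (GRCh38.p14), read on the gene's strand, and 7 of the 9 members matched that table. Capitals mark GC boxes (GGGCGG on either strand) and CCAAT boxes (CCAAT on either strand). The windows are chr17:19647886-19648135 and chr17:19648501-19648750 (plus strand) for the first and the second of 2 listed ALDH3A2 start sites, chr1:165698563-165698812 (minus) for ALDH9A1, chr15:100879581-100879830 (plus) for ALDH1A3 and chr9:72953054-72953303 (minus) for ALDH1A1.
ALDH3A2, first start site: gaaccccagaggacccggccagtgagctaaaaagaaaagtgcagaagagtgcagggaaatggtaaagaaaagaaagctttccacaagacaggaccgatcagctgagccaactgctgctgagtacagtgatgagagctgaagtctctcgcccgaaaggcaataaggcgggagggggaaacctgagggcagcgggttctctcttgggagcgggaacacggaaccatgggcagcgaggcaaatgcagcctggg
ALDH3A2, second start site: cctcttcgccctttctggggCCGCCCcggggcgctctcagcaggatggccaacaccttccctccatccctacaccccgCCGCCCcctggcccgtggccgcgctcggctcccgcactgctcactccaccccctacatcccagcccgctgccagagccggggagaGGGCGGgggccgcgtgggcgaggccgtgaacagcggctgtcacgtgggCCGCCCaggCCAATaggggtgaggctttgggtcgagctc
ALDH9A1: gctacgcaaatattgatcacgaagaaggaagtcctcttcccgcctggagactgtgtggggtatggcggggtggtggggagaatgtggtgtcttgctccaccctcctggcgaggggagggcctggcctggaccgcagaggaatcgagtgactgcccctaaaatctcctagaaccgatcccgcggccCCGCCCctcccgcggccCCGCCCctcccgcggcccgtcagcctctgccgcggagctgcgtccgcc
ALDH1A3: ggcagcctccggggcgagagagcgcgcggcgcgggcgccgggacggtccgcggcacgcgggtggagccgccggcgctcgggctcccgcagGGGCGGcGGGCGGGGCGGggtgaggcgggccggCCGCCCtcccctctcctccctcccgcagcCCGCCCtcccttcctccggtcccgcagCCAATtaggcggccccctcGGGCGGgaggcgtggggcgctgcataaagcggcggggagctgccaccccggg
ALDH1A1: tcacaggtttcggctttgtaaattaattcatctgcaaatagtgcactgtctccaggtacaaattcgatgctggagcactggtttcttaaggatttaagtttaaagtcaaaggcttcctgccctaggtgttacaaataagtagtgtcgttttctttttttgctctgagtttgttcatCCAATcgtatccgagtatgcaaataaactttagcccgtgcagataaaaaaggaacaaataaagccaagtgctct

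The ALDH1A3 window held 6 GC boxes and 1 CCAAT box, with 82.4% G and C. The 2 ALDH3A2 windows differed: the first held 0 GC boxes and 0 CCAAT boxes (55.6%), and the second 4 GC boxes and 1 CCAAT box (73.2%). Which start site was in use was not measured. The ALDH9A1 window held 2 GC boxes and 0 CCAAT boxes (67.2%). The ALDH1A1 window had 0 GC boxes, 1 CCAAT box and 38.4% G and C. Over all 34943 windows of this length, the median was 58.0%, and 42.5% held a GC box and 32.0% a CCAAT box. A TATA box (TATAAA, either strand, in 10.8% of all windows) and the core of the antioxidant response element (TGACNNNGC, either strand, in 10.9%) were not found in these 5 windows. Motifs may overlap, as adjoining GC boxes do in the ALDH1A3 window. These matches describe letters only, since nothing in the series measured promoters.

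The check on the labels went against them. FOLH1, read by its single-gene probe set, was at 61.5, 59.7 and 60.4 on the arrays labelled control and at 24.4, 32.0 and 28.002 on the arrays labelled PSMA, a log2 difference of -1.11, and the groups did not overlap. The 3 probe sets shared by FOLH1 and its paralog FOLH1B were 17-fold to 39.4-fold lower on the arrays labelled PSMA. All 4 probe sets passed the filter on dim signals through the control arrays alone, so the values are given with no test. Whether these probe sets read the transfected sequence was not tested. Every direction below therefore follows the labels as deposited, and "rose" or "higher" means higher on the arrays labelled PSMA.

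Arrays of 1 group correlated at r = 0.9976 to 0.9981 in log2 values across probe sets, and arrays of different groups at 0.9874 to 0.9878. Of all genes tested, 63.6% passed the limma threshold (adjusted p under 0.05), 30.1% higher and 33.5% lower. Among epithelial markers 9 of 10 were on the array and 7 were tested; 6 fell, none rose and KRT19 (log2 difference -0.09) did not pass, and the summed signal was 17705 to 18332 on arrays labelled control and 14005 to 14519 on arrays labelled PSMA. CLDN7 (-0.85) and KRT18 (-0.40) fell most. Of 8 luminal prostate markers 5 were on the array and only HOXB13 was tested, which rose by 0.38; the summed signal was 208.9 to 233.9 and 247.9 to 286.1. Of 10 leucocyte markers 8 were on the array and 0 passed the filter, with summed signals of 109.5 to 115.5 and 121.1 to 124.2. Of 11 fibroblast and endothelial markers 2 were tested and 0 passed limma's threshold, with 0 also at an unadjusted p under 0.05; the summed signal was 302.3 to 320.7 and 316.7 to 340.8. The brightest of the 2, COL1A1, had a log2 difference of 0.13 (adjusted p = 0.142) on its brightest probe set, 0.20 (adjusted p = 0.0121) without control replicate 3, and 1.14 (limma adjusted p = 2.80e-07) as the mean of its probe sets, where it passed. Among the markers of this list under the filter, LUM read 36.769, 41.227 and 27.432 on the arrays labelled control. On those labelled PSMA it read 7.318, 6.435 and 5.022. KDR went the other way, at 10.034, 10.62 and 10.053 against 22.957, 33.235 and 33.515. Both were named after their values were seen, and the summed signal does not show such opposite shifts. No marker was listed at 0, and the part of these markers in the results below was not tested.

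Of the 9 aldehyde dehydrogenases, 6 passed the filter on dim probe sets, which kept those that exceeded 52.5, the median intensity of the whole table, on 3 or more arrays. Each of the 6 was above it on all 6 arrays, so no member was tested through 1 group alone. In the gene-level fit 5 of the 6 passed the limma threshold. ALDH1A3 and ALDH9A1 rose, ALDH1B1, ALDH3A2 and ALDH4A1 fell, and ALDH7A1 did not pass. The share called among all genes was 63.6%, so this count is near the background. The count fell to 3 without PSMA replicate 4 and to 3 without PSMA replicate 5, since ALDH1A3 and ALDH1B1 no longer passed, while 4165 and 3999 of all 7035 genes did. Groups did not overlap for 4 of the 6, against 69.5% of all genes tested. The median log2 difference of the 6 was -0.13, against -0.01 over all genes tested. Of the 6, 1 was called and differed by 1.5-fold or more, as did 13.8% of all genes, and that 1 was ALDH3A2, which also passed 2-fold, as did 4.41% of all genes. In a fit over all 11963 genes without the filter, 5 of the 9 members passed, 2 higher (ALDH2 and ALDH9A1) and 3 lower (ALDH3A1, ALDH3A2 and ALDH4A1). There 38.6% of all genes passed, 19.3% higher and 19.3% lower, and the groups did not overlap for 50.3%. In bulk RNA, fewer cells with a transcript and less of it per cell cannot be told apart.

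**Figure D1:**
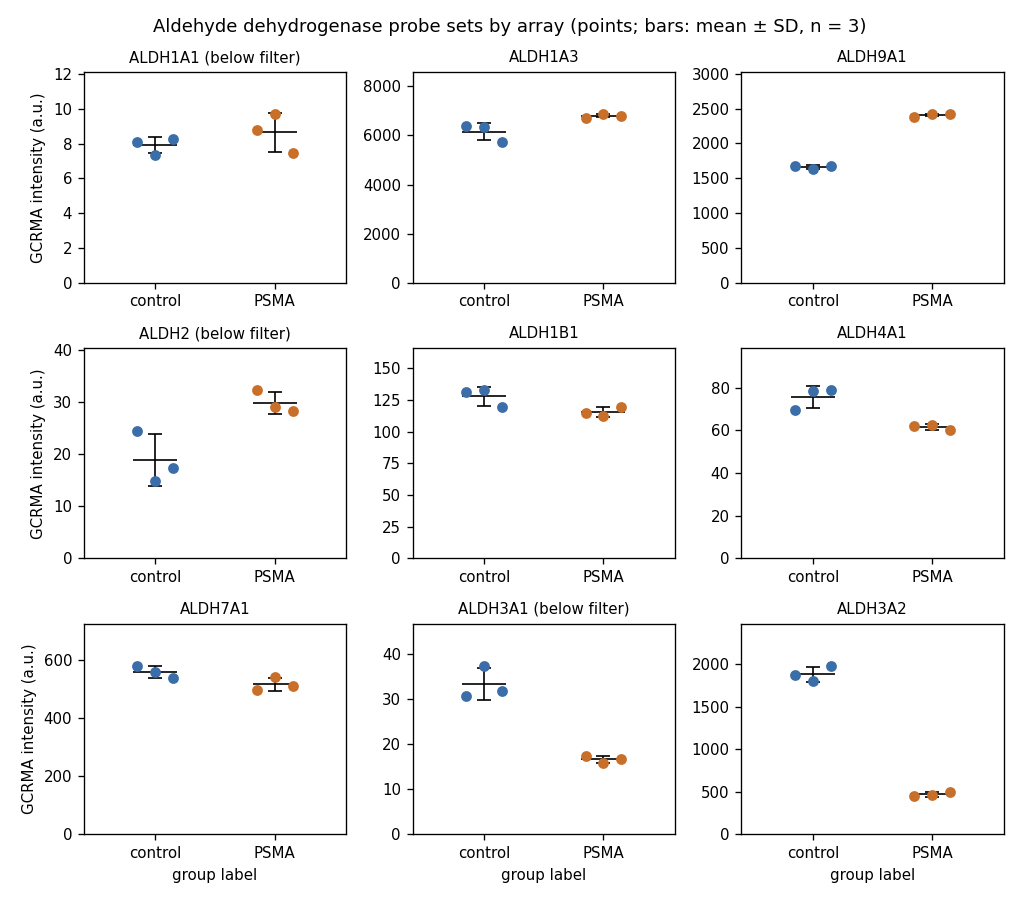
Processed intensity (arbitrary units, linear axes from 0, a separate scale for each gene) of the brightest probe set of each aldehyde dehydrogenase on each array, with the mean and SD of the 3 arrays in each group. ALDH3A2 sits at 1797 to 1976 on the arrays labelled control and at 448 to 498 on those labelled PSMA, while the groups overlap for ALDH1A1, ALDH1B1 and ALDH7A1.

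ALDH3A2, the fatty aldehyde dehydrogenase of the endoplasmic reticulum, which oxidises long-chain aldehydes from lipid breakdown, had the largest difference of the 9. Its brightest probe set read 1866, 1797 and 1976 on the arrays labelled control and 448, 459 and 498 on those labelled PSMA. The lowest control value was well above the highest PSMA value. The means were 1880 ± 90.2 and 468 ± 26.3 (SD, n = 3), a 4.02-fold decrease (log2 difference -2.01, SE 0.0569, limma adjusted p = 3.82e-08). Among all 7035 genes tested, 50 (0.711%) had a larger difference in either direction.

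The other ALDH3A2 probe sets gave the same direction. The second read 1197, 1236 and 1210 on the arrays labelled control and 311, 332 and 331 on those labelled PSMA, a log2 difference of -1.90 (limma adjusted p = 3.51e-08 over the 11303 probe sets tested). The third, dimmer, read 201.5, 231 and 210.5 against 58.7, 63.8 and 62.5, a log2 difference of -1.80 (limma adjusted p = 1.82e-07). Groups did not overlap on any of the 3. Of probe sets tested, 60.6% passed and 32.4% passed as lower.

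ALDH3A1, a cytosolic relative that oxidises medium-chain and aromatic aldehydes and is abundant in cornea, read 30.8, 37.4 and 31.7 on the arrays labelled control and 17.3, 15.9 and 16.7 on those labelled PSMA. All 6 values lay under the filter, and the groups did not overlap. In the fit without the filter it was 2.0-fold lower (log2 difference -0.997, SE 0.0833, limma adjusted p = 0.000106). With 16 added to each value before the log, the difference was -0.59. At this dim level the size of a fold thus depends on the pseudocount.

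ALDH3A1 and ALDH3A2 are neighbours on chromosome 17, and in reference order no other gene of the array lies between them. Of the 10 tested genes nearest to ALDH3A2, 5 on each side, 9 fell and 0 rose, with a median log2 difference of -1.94. The 9 were TVP23B (-2.14), PRPSAP2 (-1.88), B9D1 (-2.10), MAPK7 (-1.70), ULK2 (-2.10), AKAP10 (-1.98), USP22 (-1.61), DHRS7B (-2.18) and TMEM11 (-1.90). The value for ALDH3A2, -2.01, lay within their range. USP32P2 (-0.02, adjusted p = 0.787) was the 1 that did not pass. Over all genes tested, 2.52% were called and at least 2-fold lower.

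The view was then widened to 15 tested genes on each side, a choice made after the values were seen. Of these 31 genes, ALDH3A2 included, 20 were called and at least 2-fold lower, running without a break but for USP32P2 from MPRIP (-1.11) to TMEM11. MPRIP is the first gene of the 31, so these values do not show where the run begins. From WSB1 (-0.11) onwards the 10 genes on the far side had differences from -0.23 to 0.66. The 2 genes between MAPK7 and ALDH3A2 were too dim for the filter: MFAP4 read 14.5 to 19.2 over the 6 arrays and SLC47A1 read 6.94 to 9.16, and neither differed by more than 0.07 on the log2 scale. The cause of the shared shift was not tested.

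**Figure D2:**
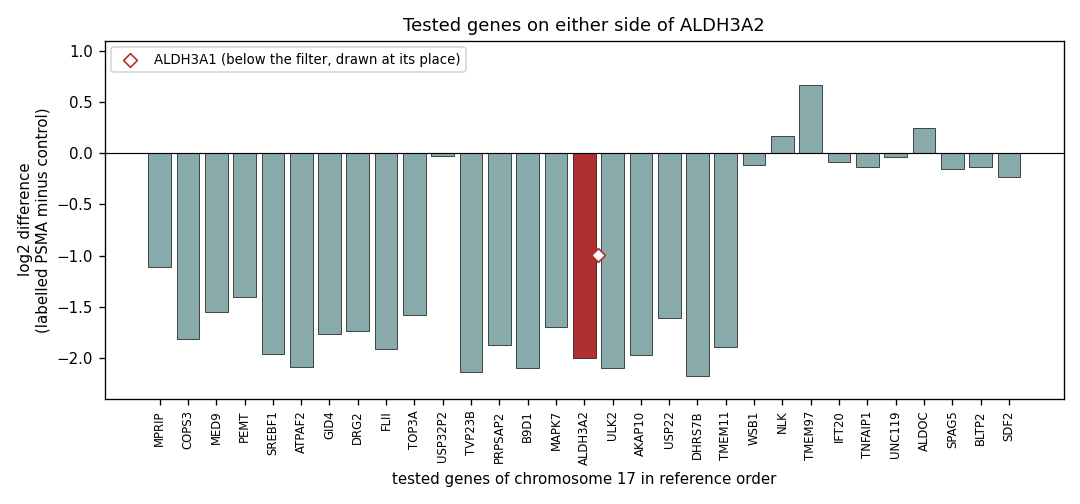
Log2 difference (arrays labelled PSMA minus arrays labelled control) of ALDH3A2, in red, and the 15 tested genes on each side of it in reference order along chromosome 17; the open diamond is ALDH3A1, below the filter, at its place in the order. Of the 31 bars, 20 reach -1 or lower, and the 10 to the right of TMEM11 lie between -0.23 and 0.66.

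Around the other tested members, the neighbours' medians lay nearer to 0. The median log2 difference of the nearest tested genes was -0.14 for ALDH1A3 (8 genes, the chromosome end leaving 3 on 1 side), -0.16 for ALDH1B1, -0.03 for ALDH4A1, 0.15 for ALDH7A1 and 0.16 for ALDH9A1 (10 genes each). Each of these sets held genes that rose and genes that fell. Nearness here is by order along the chromosome, with no limit on distance. The genes after ALDH1B1 had log2 differences from -0.55 to -0.09, and those before it from -0.24 to 0.28. Single neighbours, named after their values were seen, differed by more: PRR16 (2.00) and FBN2 (1.36) near ALDH7A1, RGS4 (-1.48) near ALDH9A1 and FAM174B (-1.17) near ALDH1A3. For ALDH4A1, 4 of the 5 following genes fell (UBR4, EMC1, AKR7A3 and AKR7A2, -0.41 to -0.27), and 4 of the 5 preceding ones rose by 0.25 to 0.32; these were singled out after their values were seen.

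Over the 6 arrays, the genes whose log2 profile lay closest to that of ALDH3A2, each centred on its own mean, were TRBC1 (Euclidean distance 0.121), PRRG4 (0.14) and B9D1 (0.147). TRBC1 read 2430 to 2684 on the arrays labelled control and 643 to 702 on those labelled PSMA. B9D1 is among the chromosome 17 neighbours listed above, whereas TRBC1 and PRRG4 are annotated to chromosomes 7 and 11. With 6 arrays in 2 groups, this likeness mostly restates a similar group difference.

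ALDH1A3 and ALDH1A1, the retinal-oxidising members, contrasted in signal. ALDH1A3 read 6383, 6344 and 5746 on the arrays labelled control and 6729, 6856 and 6804 on those labelled PSMA, at percentile 98.9 and 99.1 of all probe sets. ALDH1A1 read 8.07, 7.37 and 8.24 against 8.76, 9.67 and 7.48, at percentile 11.7 and 14.2. Percentiles place a probe set within the array's range of brightness and do not order transcript amounts between genes, because probes differ in affinity.

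The ALDH1A3 groups did not overlap, and their means were 6158 ± 357 and 6796 ± 63.6 (SD, n = 3), a 1.1-fold increase (log2 difference 0.14, SE 0.0514, 95% interval 0.03 to 0.26, limma adjusted p = 0.0364). Control replicate 3 was the lowest of the 6, and without it the difference was 0.095 (adjusted p = 0.0738). The call was also lost without PSMA replicate 4 (limma adjusted p = 0.0657), 5 (0.0983) or 6 (0.0792), with quantile normalization (0.0548), with median centring (0.0611) and without the filter (0.0901). The ALDH1A1 groups overlapped (log2 difference 0.12, 95% interval -0.11 to 0.36, limma adjusted p = 0.376 without the filter), and a change was not detectable at this signal.

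ALDH2, the mitochondrial enzyme that clears most acetaldehyde from ethanol, was dim. It read 24.5, 14.9 and 17.3 on the arrays labelled control and 32.3, 29.0 and 28.2 on those labelled PSMA, all under the filter. The groups did not overlap. Control replicate 1 was the highest of its group, and the control SD of 5.03 exceeded the PSMA SD of 2.15. In the fit over all genes without the filter the log2 difference was 0.69 (SE 0.172, 95% interval 0.29 to 1.09, limma adjusted p = 0.0162). The call was lost without control replicate 3 (limma adjusted p = 0.0587) and without PSMA replicate 4 (0.0559). It was also lost when all values under 13.0 in the whole table were raised to 13.0 (0.0668). No ALDH2 value lay under 13.0, so its difference stayed at 0.69 there, with an SE of 0.210. With 16 added before the log, the difference was 0.40.

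ALDH1B1, a mitochondrial relative of ALDH2, read 131, 133 and 119 on the arrays labelled control and 115, 112 and 120 on those labelled PSMA. The groups overlapped, since control replicate 3 fell just under PSMA replicate 6. The log2 difference was -0.15 (SE 0.0543, 95% interval -0.27 to -0.02, limma adjusted p = 0.0428). The second probe set, at 55.1 to 61.9 on all arrays, had a difference of -0.05 (adjusted p = 0.443 over probe sets). The call was lost without control replicate 1 (limma adjusted p = 0.129) or 2 (0.134), without PSMA replicate 4 (0.0954) or 5 (0.136), and with quantile normalization (0.0911), the mean of both probe sets (0.134), the trended prior (0.0645) or no filter (0.101).

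Among members that act on amino acid and amine breakdown products, ALDH9A1 rose, ALDH4A1 fell and ALDH7A1 did not pass. ALDH9A1, which oxidises the aldehydes on the way to carnitine and to gamma-aminobutyric acid, read 1669, 1628 and 1681 on the arrays labelled control and 2384, 2415 and 2415 on those labelled PSMA. The spread within each group was small beside the gap. The means were 1660 ± 27.8 and 2405 ± 18.0 (SD, n = 3), a 1.45-fold increase (log2 difference 0.54, SE 0.0397, limma adjusted p = 7.08e-06). It missed a test against a minimum fold of 1.5, and 16.3% of genes tested had a larger difference.

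ALDH4A1, the mitochondrial enzyme that completes the breakdown of proline to glutamate, read 69.7, 78.5 and 78.9 on the arrays labelled control and 62.3, 62.7 and 60.1 on those labelled PSMA. The groups did not overlap, and the log2 difference was -0.29 (SE 0.0570, limma adjusted p = 0.00196). Its second probe set read 69.8, 54.4 and 62.4 against 47.1, 42.1 and 35.1, a difference of -0.59. That probe set passed the filter through the control arrays alone, so a difference there was favoured by the filter and is given with no test. As the mean of both, and so with that probe set included, the difference was -0.44.

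ALDH7A1, which oxidises the semialdehyde formed in lysine breakdown, read 579.98, 558 and 539 on the arrays labelled control and 496, 541 and 512 on those labelled PSMA. The groups overlapped by 1 array on each side. The log2 difference was -0.11 (SE 0.0505, 95% interval -0.23 to 0.002, limma adjusted p = 0.0786). Its second probe set read 545, 527 and 561 against 459, 495 and 493, with no overlap and a difference of -0.18 that passed (limma adjusted p = 0.0149 over probe sets). The third, at 17.7 to 21.3, was under the filter and had a difference of 0.05. The gene passed with the mean of its tested probe sets (-0.14, adjusted p = 0.0207) and without control replicate 3 (-0.14, adjusted p = 0.0491).

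**Figure D3:**
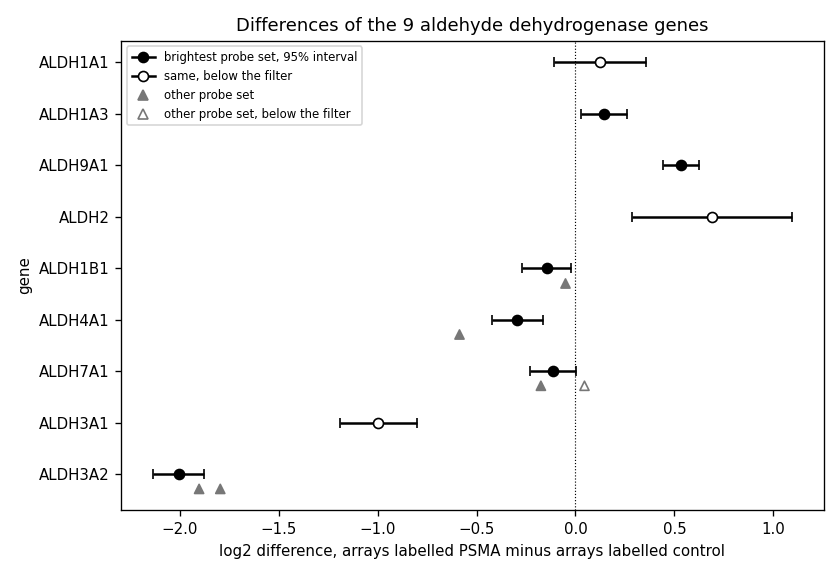
Log2 difference between the groups for the 9 genes. Circles are the brightest probe set with its 95% interval from limma (open where all arrays are under the filter), and triangles are the gene's other probe sets (open where under the filter). ALDH3A2 lies near -2 on all 3 probe sets, and the intervals of ALDH1A1 and ALDH7A1 cross 0.

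Of 10 further aldehyde dehydrogenase family genes, 8 were on the array and 3 were tested, of which 1 rose and 0 fell. ALDH5A1, the mitochondrial succinic semialdehyde dehydrogenase of gamma-aminobutyric acid breakdown, read 199.4, 199 and 192 on the arrays labelled control and 308, 320 and 331 on those labelled PSMA. No control value came near the PSMA values, and the increase was 1.62-fold (log2 difference 0.70, limma adjusted p = 3.22e-06). ALDH6A1 (0.07, adjusted p = 0.621) and ALDH18A1 (0.08, adjusted p = 0.173) did not pass. The median of the 3 was 0.08 against -0.01 over all genes, of which 63.6% passed. Those under the filter included the second retinal-oxidising gene ALDH1A2, at 12.1 to 17.8.

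Alcohol dehydrogenases, aldehyde reductases and related enzymes were described as a list of 31 genes, of which 25 were on the array and 16 were tested. Not all of the list forms or reduces aldehydes, as the roles of SAT1 and ESD below show. Of the 16 tested, 5 rose, 8 fell and 3 did not pass, with a median log2 difference of -0.15. Over all genes tested, 30.1% rose and 33.5% fell, with a median of -0.01. MAOA, the mitochondrial monoamine oxidase that turns amines into aldehydes, read 352, 356 and 305 on the arrays labelled control and 98.8, 97.7 and 83.3 on those labelled PSMA. It fell by 1.86 on the log2 scale (limma adjusted p = 4.52e-07). SAT1, which acetylates polyamines, fell by 0.71 (limma adjusted p = 4.62e-06).

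ESD, which hydrolyses S-formylglutathione in formaldehyde clearance, read 988, 995 and 1095 against 2037, 2022 and 2115 and rose 2.01-fold (limma adjusted p = 9.74e-07). SMOX, which oxidises spermine and yields an aldehyde, rose by 0.44 (limma adjusted p = 0.00145). The other 3 that rose, named after their values were seen, were DHRS7 (0.25), ADH5 (0.13) and AOX1 (0.13). Besides MAOA and SAT1, those that fell were AKR1C3 (-0.65), CBR3 (-0.62), CBR1 (-0.51), AKR1C1 (-0.39), AKR7A3 (-0.36) and AKR7A2 (-0.27). These too were named after their values were seen. The 3 that did not pass were CBR4, AKR1B10 and GSTA4 (-0.04 to 0.04).

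Of 35 genes of retinoid metabolism and signalling, the pathway fed by ALDH1A1 and ALDH1A3, 24 were on the array and 13 were tested. There 4 rose, 2 fell and 7 did not pass, beside the 63.6% of all genes that passed, and the median was 0.09 against -0.01 over all genes. RBP4, the retinol carrier, read 40.6, 42.9 and 35.0 on the arrays labelled control and 137, 141 and 148 on those labelled PSMA (log2 difference 1.85). CYP26B1, which degrades retinoic acid, read 33.7, 35.3 and 31.5 against 64.1, 66.7 and 58.1 (0.91). Both passed the filter through the PSMA arrays alone, so a difference was favoured by the filter and the values are given with no test. Both count among the 4 that rose and in the median.

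The other 2 that rose, named after their values were seen, were TGM2 (0.67), a transglutaminase induced by retinoic acid in many cells, and CRABP2 (0.57), which carries retinoic acid to its receptors. The receptor genes RXRB (-0.17, limma adjusted p = 0.0123) and RARA (-0.16, limma adjusted p = 0.0466) fell. RARA lost its call without control replicate 2 (limma adjusted p = 0.0930), control replicate 3 (0.123), PSMA replicate 4 (0.139) or PSMA replicate 6 (0.136). PLAAT4, of the same list but under the filter, read 44.2, 49.7 and 42.6 on the arrays labelled control. On those labelled PSMA it read 28.4, 22.7 and 21.6. It too was named after its values were seen.

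**Figure D4:**
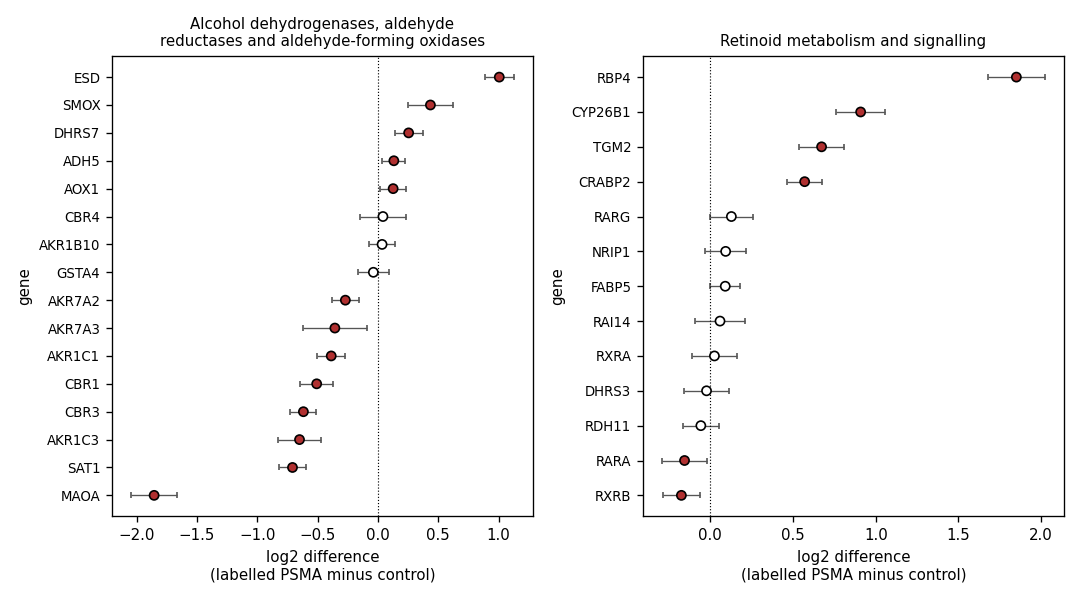
Log2 difference with 95% interval (limma). Left, 16 tested alcohol dehydrogenases, aldehyde reductases and related enzymes. Right, 13 tested retinoid genes. Filled circles passed at an adjusted p under 0.05 and open ones did not; MAOA (-1.86) and ESD (1.01) are at the ends of the left panel and RBP4 (1.85) at the top of the right.

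Of 21 genes used as markers of stem-like cancer cells beside aldehyde dehydrogenase activity, 18 were on the array and 11 were tested, of which 3 rose, 5 fell and 3 did not pass. That count is near the 63.6% called over all genes, and the median was -0.11 against -0.01. The integrin genes ITGA2 (0.61) and ITGA6 (0.26) rose. The chemokine receptor gene CXCR4 (-3.50), which passed the filter through the control arrays alone, and CD24 (-0.83) fell. ITGA2, ITGA6 and CD24 had limma adjusted p-values of 0.00353 or less. For CXCR4, counted among the 5 that fell, a difference was favoured by the filter, so its value is given with no test.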

How the data were processed

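RNA of PC3 cells was measured on 6 arrays. The deposited values are linear intensities per probe set, made by the authors with GCRMA per the submitters' processing notes (version, later steps and scale not given in the sources used here). They ran from 3.76 to 17455, with array medians of 51.7 to 52.9, and were taken as linear. GCRMA's background step compresses weak signals, so folds of dim genes are uncertain, and the number of arrays limits precision. The ratio of 3' to 5' control probe sets was 4.61 ± 0.66 (control) and 4.44 ± 0.76 (PSMA) for ACTB (SD, n = 3). For GAPDH it was 1.30 ± 0.07 and 1.36 ± 0.09. Whether such a bias towards the 3' end bears on differences between probe sets of 1 gene was not tested. Of 22277 probe sets, 62 were controls, 19064 had 1 gene symbol, 1043 several and 2108 were unnamed here; 19052 of the single-symbol probe sets matched RefSeq (GRCh38.p14) and 0 symbols needed an update.

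Values were log2-transformed with no pseudocount or further normalization. Probe sets above 52.5 on at least 3 of 6 arrays were kept (11303), and each of 7035 genes was read by its probe set with the highest mean. The group difference came from lmFit and eBayes of limma 3.58.1 (R 4.3.3), as a two-sided test, Benjamini-Hochberg adjusted over all genes. Unless a gene is said to be under the filter or a value to be over probe sets, values are from that fit. The fit was tested on simulated data. Tables and plots were made with matplotlib 3.10.9, pandas 2.3.3 and numpy 2.4.6 under Python 3.11.15.

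The members and the gene lists were chosen with earlier results of these data known. The lists were other aldehyde dehydrogenases, alcohol dehydrogenases with aldehyde reductases and related enzymes, retinoid genes and stem-like cell markers. Further lists held epithelial, luminal, leucocyte, and fibroblast and endothelial markers. Named were the members, FOLH1, in each list up to 2 genes with the largest increase and 2 with the largest decrease past the threshold (or the brightest gene if none passed), and, for members differing at least 2-fold, the 3 closest profiles and shifted neighbours. Alternatives covered the filter, a pseudocount of 16, a floor at the 25th percentile (13.0), normalization, the choice of probe set, the prior, a test against a fold of 1.5, and leaving out each array.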

Additional observations from a re-analysis of the deposited data

How the results depend on the processing

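ALDH3A2 kept its direction and its call under every alternative run (log2 differences from -2.05 to -1.90). ALDH3A1, which was not called in the main fit because it lay under the filter, was run only without the filter. There it kept its direction and its call in every alternative (from -1.05 to -0.59). ALDH9A1 (0.52 to 0.54) and ALDH4A1 (-0.44 to -0.24) kept theirs except in the test against a fold of 1.5 (adjusted p = 1 for both, at 0.54 and -0.29). That test also left 526 genes (251 higher and 275 lower) of 4476 called, and 1 of the 5 members called. It left 2 genes in each of the retinoid, aldehyde reductase and stem-like lists (of 6, 13 and 8). Among these were RBP4, CYP26B1 and CXCR4, which passed the filter through 1 group alone. Of the further aldehyde dehydrogenases the test against a fold of 1.5 left 0, where limma's test gave 1 at an unadjusted p under 0.05. It ended the calls of ALDH1A3 (0.14) and ALDH1B1 (-0.15) and, in the fit without the filter, that of ALDH2 (0.69). By construction it asks for a larger difference. Quantile normalization left 3 members called, with ALDH1A3 at 0.13 and ALDH1B1 at -0.11 no longer past the threshold, and median centring ended the call of ALDH1A3 (0.13). Without the filter, ALDH1A3 (0.14) and ALDH1B1 (-0.15) lost their calls among more genes tested, and 2 further aldehyde dehydrogenases were called in place of 1. The mean of a gene's probe sets ended the call of ALDH1B1 (-0.10) and gave one to ALDH7A1 (-0.14). It also gave the -0.44 of ALDH4A1, whose second probe set passed the filter through the control arrays alone. The trended prior ended the call of ALDH1B1 (-0.15) and the floor at the 25th percentile that of ALDH2 (0.69). Both differences were unchanged, and the SE was larger: 0.0657 against 0.0543 for ALDH1B1 and 0.210 against 0.172 for ALDH2. No ALDH2 value was under that floor, and the ALDH1B1 values were the same with the trended prior. The SE in limma also draws on a prior spread estimated over all genes, which is the part that differed in both settings. Leaving out 1 array gave 3 to 5 members called, with ALDH1A3 at 0.095 to 0.17, ALDH1B1 at -0.19 to -0.12, ALDH2 at 0.53 to 0.89, ALDH7A1 at -0.15 to -0.085 and ALDH1A1, not called in any, at 0.04 to 0.22. No member reversed its direction past the threshold. No paired analysis was possible because the groups share no replicate number. Dim signal limits ALDH1A1, ALDH2 and ALDH3A1, which lay under the filter on all arrays.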
